A study of Rattus norvegicus with 20 samples.

Results

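Dithiolethiones are small sulfur-containing rings fed to animals as inducers of protective enzymes, and 2 of them were given here: D3T (3H-1,2-dithiole-3-thione), the unsubstituted ring, and OLT (oltipraz), the same ring carrying a methyl and a pyrazinyl group. Both were taken as 1 class. Its members are the 5 liver arrays labelled D3T and the 5 labelled OLT, 10 of the study's 20 arrays, and they were set against the 5 arrays of control rats. The class was fitted with 1 mean, so that neither a difference nor its error changes if an array carries the name of the other compound.

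The animals were female Sprague Dawley rats, each on its own array, with 5 rats to a diet for 24 days. Control rats ate the Harlan Teklad 4% mash diet as it was, and the other diets were that diet with D3T at 600 mg per kg, OLT at 500 mg per kg, or 5,6-benzoflavone (BNF), which activates the aryl hydrocarbon receptor, at 1650 mg per kg. The ages of the rats and the hour at which each liver was taken are not given in the sources used here. The dithiolethione doses differ, so D3T and OLT values stand side by side below and no pair of the compounds was compared.

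Dithiolethiones are known for reacting with cysteines of Keap1, the adaptor protein that keeps the transcription factor Nrf2 marked for degradation. Nrf2 that escapes Keap1 binds antioxidant response elements and drives genes for glutathione conjugation, quinone and aldehyde reduction and NADPH supply. The liver also carries out the fatty acid oxidation, lipid synthesis, bile acid synthesis and hormone metabolism that fill most of the lists below, and heat shock chaperones guard the folding of its proteins.

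Each value summarises 1 probe set as a log2 number, on which a difference of 1 is a 2-fold change, and the number of arrays limits their precision. Levels of different genes cannot be compared with each other on this scale. A probe set was tested where its value exceeded 4 in at least 5 of the 20 arrays. This held for 12947 probe sets, of which 207 passed in exactly 5 arrays, while 294 others reached that level in exactly 4 and were left out. A gene was represented by its tested probe set of highest mean, which gave 7837 genes. A gene is called below where its limma p, Benjamini-Hochberg adjusted over all tested probe sets, was under 0.05. "Rose" and "fell" are used only of called genes.

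Across tested probe sets the 20 arrays correlated between 0.930 and 0.992. The array labelled D3T 5 correlated on average at 0.968 with its own group and at 0.979 with the OLT group, and the array labelled OLT 1 had 0.963 with its own group and 0.966 with the D3T arrays. Differences of 3 or more in called genes are also given without these 2 arrays. An exchange of labels within the class would leave its difference unchanged, so these values show only how far it rests on these 2 arrays. The median of tested probe sets lay between 7.17 and 7.47 in the controls and between 6.92 and 7.46 in the class. Markers of the main liver cell type were high throughout: the mean of 7 measured hepatocyte markers ran from 14.60 to 15.03 in the controls and from 14.71 to 14.99 in the class, and 1 of the 7 was called (Ttr, transthyretin, rose by 0.26, a call made in 5 of the 15 fits that left out 1 array).

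None of 17 stellate cell and fibroblast, 11 endothelial, 5 lymphocyte and natural killer cell, 5 cholangiocyte or 1 neutrophil markers was called. Of 16 macrophage and Kupffer cell markers 1 was called, and it was lower (6.25%, against 9.31% of all genes). Cd163, the haemoglobin scavenger receptor of resident macrophages, fell by 1.23 (SE 0.329, limma adjusted p = 0.0189), a call lost without control 5 (limma adjusted p = 0.0605). The macrophage markers had a median difference of -0.36, with 1 of 16 above 0. Their mean level ran from 7.44 to 8.13 in the controls and from 6.63 to 8.21 in the class. Only 2 of 10 erythrocyte markers were measured and both rose: Alas2, the red cell form of the first enzyme of heme synthesis, by 1.89 (SE 0.340), and Hbb, a beta globin, by 1.05 (SE 0.230). The mean level of both ran from 8.93 to 10.49 in the controls and from 10.63 to 11.86 in the class, without overlap. In bulk liver RNA, fewer cells of a type and less RNA per cell cannot be told apart, and the part of these markers in the results below was not tested.

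The class differed from control in more genes downward than upward. Of the 7837 genes, 365 (4.66%) were called higher and 730 (9.31%) lower. Over all tested probe sets 490 (3.78%) were called higher and 1106 (8.54%) lower. A 2-fold difference was reached by 76 of the called genes upward (0.97% of all) and by 186 downward (2.37%). In 94 called genes (1.20%) all 10 class arrays lay above the whole range of the controls, and in 243 (3.10%) all 10 lay below it.

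The balance between the directions depended on how arrays were scaled. With values as deposited the median difference over tested probe sets was -0.03 and 30.7% of calls were upward. With every array centred on its own median the median difference became 0.13, 1233 probe sets were called higher and 793 lower, and 60.9% of calls were upward. Further quantile normalization gave 892 higher and 1038 lower, with 46.2% upward. Changes below are relative to the deposited scaling, and a list is described as rising or falling only through its counts. Over all genes 4.66% were called higher and 9.31% lower, and the counts of every list are to be read beside these shares.

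**Figure D1:**
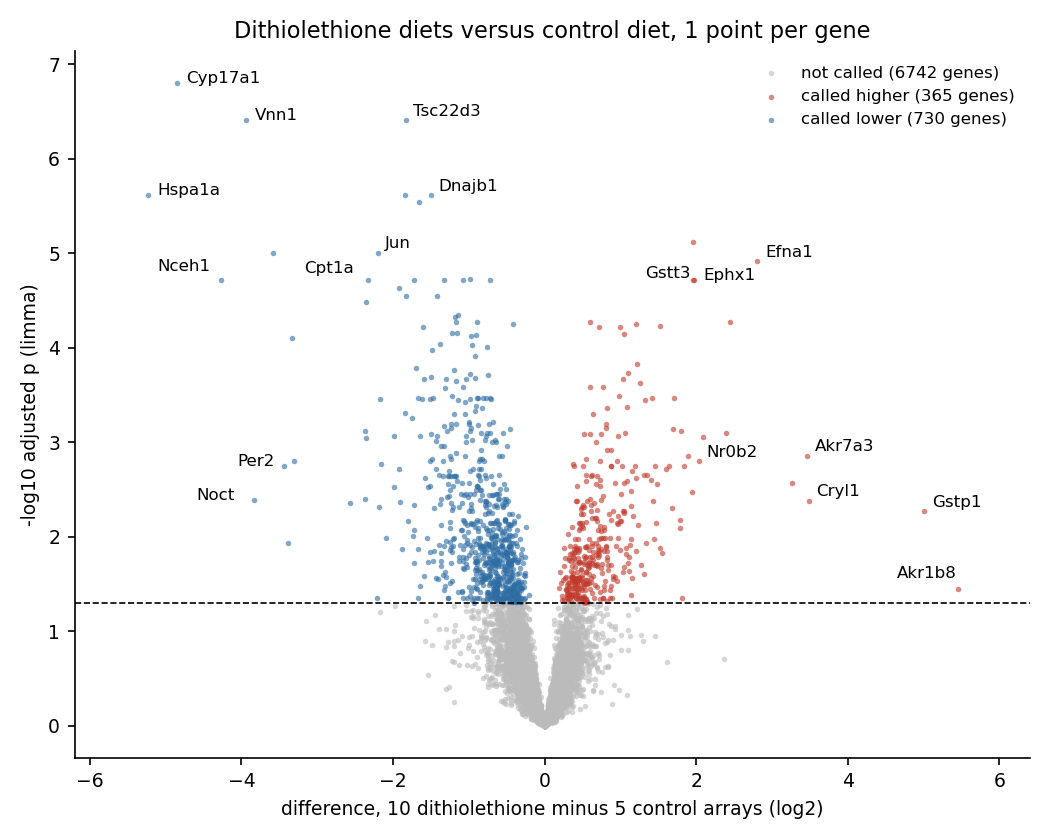
Difference between the 10 dithiolethione arrays and the 5 control arrays (horizontal axis, log2) against the limma adjusted p (vertical axis, -log10) for 7837 genes, 1 point each; the dashed line marks 0.05. Called lower are 730 genes, among them Cyp17a1, Vnn1 and Hspa1a at the upper left, and called higher are 365, among them Ephx1 and Efna1; Akr1b8 and Gstp1 differ most upward with larger adjusted p.

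Cyp17a1, the steroid hydroxylase and lyase needed for androgen synthesis, had the smallest adjusted p of the 4 genes chosen to mark the class. It read 8.30, 8.50, 8.84, 6.63 and 6.42 in the 5 controls, against a lowest value of 2.37, a median of 2.87 and a highest of 3.81 over the class. Every class array lay under the filter level of 4, and every control lay above 6. The difference was -4.85 (SE 0.352, adjusted p = 1.58e-07), a 28.9-fold lower level, and -4.77 without D3T 5 and OLT 1. D3T arrays averaged 2.91 and OLT arrays 2.86. Because the class sits near the floor of the scale, the size of the difference depends on where that floor lies.

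Hspa1a, the stress-inducible cytosolic chaperone of the Hsp70 family, had the largest fall of all measured genes. Controls read 9.14, 10.77, 10.10, 10.84 and 10.80, and the class ran from 3.65 over a median of 5.11 to 6.55, with no overlap. The difference was -5.23 (SE 0.485, adjusted p = 2.45e-06), or 37.5-fold, and -5.16 without the 2 arrays of doubtful label. The group means were 4.86 for D3T and 5.33 for OLT. A near-identical copy, Hspa1b, may share this probe set.

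Vnn1, the pantetheinase that releases cysteamine and a known PPARa target, was the tightest of these genes in the controls, at 9.10, 8.90, 8.89, 8.80 and 8.70. The class ran from 4.57 over a median of 4.70 to 6.54, the highest being the array labelled OLT 4. Vnn1 fell by 3.94 (SE 0.317, adjusted p = 3.94e-07), or 15.4-fold, and the difference was -3.89 without D3T 5 and OLT 1. The D3T arrays lay between 4.57 and 4.79 and the OLT arrays between 4.65 and 6.54.

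Ephx1, microsomal epoxide hydrolase and a classical Nrf2 target, moved the other way. It read 12.14, 11.67, 12.22, 11.86 and 12.03 in the controls, and from 13.20 over a median of 13.88 to 14.71 in the class. All 10 class arrays stood above every control. The rise was 1.97 (SE 0.228, adjusted p = 1.94e-05), or 3.92-fold, and 1.92 without D3T 5 and OLT 1. The BNF arrays averaged 7.16 for Cyp17a1, 9.67 for Hspa1a, 8.21 for Vnn1 and 12.74 for Ephx1, and the class differed from BNF in each (limma adjusted p = 9.52e-08, 2.88e-06, 9.50e-07 and 0.0012).

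**Figure D2:**
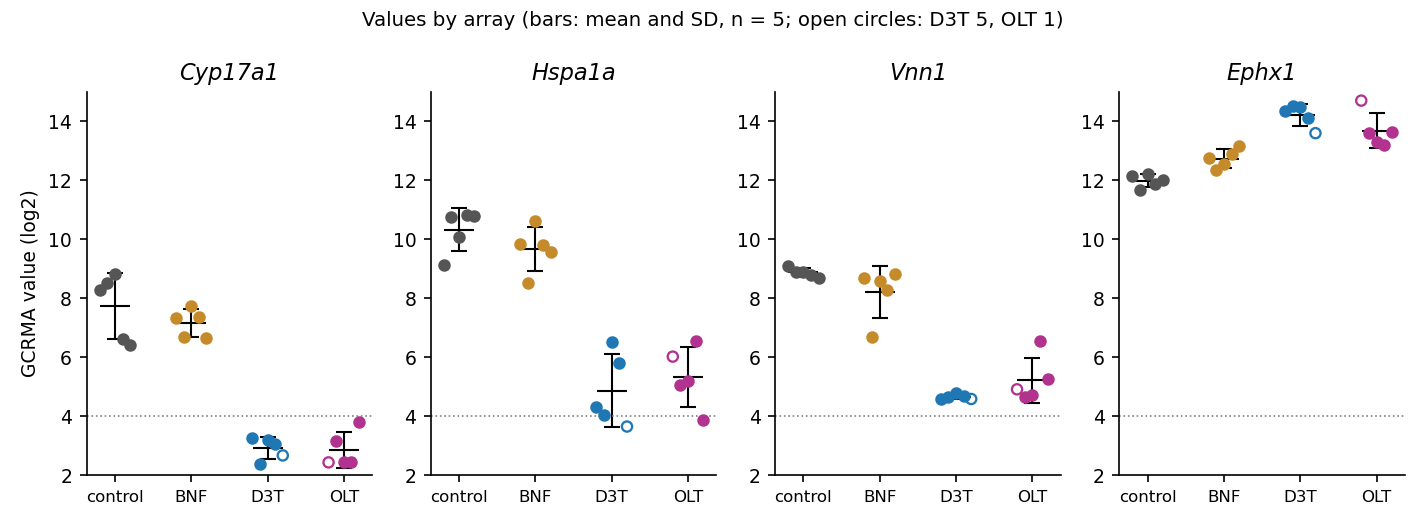
Deposited log2 values of Cyp17a1, Hspa1a, Vnn1 and Ephx1 in each of the 20 arrays by diet, with mean and SD (n = 5) as bars; open circles are the arrays labelled D3T 5 and OLT 1, and the dotted line marks the filter level of 4. The D3T and OLT points lie outside the control range in all 4 genes, below it for the first 3 and above it for Ephx1.

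Most measured Nrf2 targets rose. Of 44 listed genes 33 were measured, 19 were called higher (57.6%, against 4.66% of all genes), 2 lower and 12 neither. The median difference was 0.70, against -0.03 over all genes. Without D3T 5 and OLT 1 the count was 16 higher and 2 lower, and it fell to 13 higher without control 2. Across every alternative tried 12 of the 19 stayed called. The 2 members called lower (6.06%, against 9.31% of all genes) were Nfe2l2, which encodes Nrf2 itself, and Hmox1, heme oxygenase. Only Nfe2l2 was called lower in every alternative, and 1 member was called lower without control 1, 3 or 5.

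Promoter windows of RefSeq genes in build GRCr8, from 250 bases before to 50 after the gene start, were searched for the antioxidant response element core TGACNNNGC on both strands. Of the 18 called-higher Nrf2 targets with a window, 5 held it (27.8%), as did 9 of all 28 measured Nrf2 targets with a window (32.1%), against 15.6% of 6604 measured genes and 12.1% of all 33469 windows. It stood in 16.7% of genes called higher and in 16.3% of genes called lower. The windows of 3 members whose class arrays all stood above the controls are shown to place the element, with the match in capitals. Gstp1 lies at chr1:210769656-210769955 on the minus strand, Ephx1 at chr13:95263068-95263367 on the minus strand and Gsta3 at chr9:31154739-31155038 on the plus strand; the last 2 each have 1 further window without a match.
Gstp1: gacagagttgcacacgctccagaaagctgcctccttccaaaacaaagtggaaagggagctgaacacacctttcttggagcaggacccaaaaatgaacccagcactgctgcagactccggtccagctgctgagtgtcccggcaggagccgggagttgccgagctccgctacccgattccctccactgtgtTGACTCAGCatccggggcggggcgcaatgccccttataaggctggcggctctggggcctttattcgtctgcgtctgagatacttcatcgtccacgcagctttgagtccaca
Ephx1: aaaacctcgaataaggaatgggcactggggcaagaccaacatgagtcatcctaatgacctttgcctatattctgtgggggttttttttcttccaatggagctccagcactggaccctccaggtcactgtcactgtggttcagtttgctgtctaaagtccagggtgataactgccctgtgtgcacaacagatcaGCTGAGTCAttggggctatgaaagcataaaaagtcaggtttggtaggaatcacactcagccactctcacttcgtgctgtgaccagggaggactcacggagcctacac
Gsta3: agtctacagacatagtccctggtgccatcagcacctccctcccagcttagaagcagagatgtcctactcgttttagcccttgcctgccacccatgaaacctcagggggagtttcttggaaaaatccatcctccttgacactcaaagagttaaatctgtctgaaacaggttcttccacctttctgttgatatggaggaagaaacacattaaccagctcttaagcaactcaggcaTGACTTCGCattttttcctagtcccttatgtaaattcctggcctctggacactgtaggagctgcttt
Counted from the gene start, the match began at position -61 in Gstp1, -57 in Ephx1 and -17 in Gsta3. A match is a run of letters and does not show that Nrf2 binds there.

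Glutathione transferases, which couple glutathione to reactive compounds, had the largest share called higher of the lists with at least 10 measured members. Of 18 measured genes 13 were called higher (72.2%, against 4.66% of all genes) and none lower, with a median of 0.69. Calls numbered 10 without D3T 5 and OLT 1, 10 as well without control 2, 3 or 4, and 9 members stayed called in every alternative. Gstt3, a theta class enzyme, read 11.26, 11.18, 11.67, 11.15 and 11.81 in the controls and from 12.70 over 13.38 to 13.96 in the class, a rise of 1.95 (SE 0.224, adjusted p = 1.94e-05). Gsta1, of the alpha class, rose by 0.60 (SE 0.0770) from a level that was already 14.22 in the controls. Gstm1, of the mu class, rose by 1.08 (SE 0.171). The ranges of class and control did not overlap in any of these 3. Close relatives in this family may share probes.

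Gstp1, the pi class enzyme that is low in normal rat liver, had a wider spread. Controls read 7.59, 6.88, 7.89, 6.57 and 7.64, and the class ran from 8.68 over 12.54 to 15.28. The rise was 5.01 (SE 1.09, adjusted p = 0.0054), or 32.2-fold, and 4.89 without the 2 arrays of doubtful label. Arrays labelled D3T 1 to D3T 4 lay between 14.79 and 15.28 and OLT 2 to OLT 5 between 8.68 and 9.72. D3T 5 stood at 10.30 and OLT 1 at 15.26.

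Of 32 measured genes of glutathione synthesis and redox enzymes 3 were called higher (9.38%, against 4.66% of all genes). Called lower were 2 (6.25%, against 9.31%), and 27 were neither, with a median of 0.12. Gss, glutathione synthetase, rose by 0.73 (SE 0.146, adjusted p = 0.0029). Txn1, thioredoxin, rose by 0.61 (SE 0.118), with the array labelled OLT 3 at 12.75 among the controls. Oplah, the oxoprolinase of the glutathione cycle, fell by 0.56 (SE 0.137), a call lost when arrays were centred. Centring gave 8 called higher and 1 lower in this list.

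NADPH supply rose in 7 of 14 measured genes (50%, against 4.66% of all genes) and fell in none, with a median of 0.32. The 7 were Idh1, Me1, Pgd, Tkfc, Taldo1, H6pd and Tkt. Pgd, Taldo1 and Tkt belong to the pentose phosphate pathway. Taldo1, Tkt and Tkfc, a triose kinase, do not themselves make NADPH. Idh1, isocitrate dehydrogenase, rose by 0.38 (SE 0.0711), Me1, malic enzyme, by 1.95 (SE 0.396) and Pgd, phosphogluconate dehydrogenase, by 1.42 (SE 0.299). Me1 read 8.97, 8.29, 8.19, 8.60 and 8.80 in the controls and 9.14 at its lowest in the class, where D3T arrays averaged 11.18 and OLT arrays 9.85. Without control 4 only 4 members of the list were called, and 4 stayed called in every alternative.

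Among aldo-keto and carbonyl reductases 5 of 23 measured genes were called higher (21.7%, against 4.66% of all genes). Called lower were 3 (13%, against 9.31%), and the median was 0.10. Higher calls numbered 3 in 9 of the 15 fits that left out 1 array, namely D3T 2, 3 or 4, OLT 1 or any control. Akr7a3, the aflatoxin aldehyde reductase, read 9.53, 8.54, 8.95, 9.24 and 9.47 in the controls and from 10.68 over 12.63 to 14.33 in the class, a rise of 3.46 (SE 0.624, adjusted p = 0.0014), or 3.40 without D3T 5 and OLT 1. Cyb5r3, cytochrome b5 reductase, rose by 0.75 (SE 0.157). Por, the reductase that feeds electrons to microsomal P450 enzymes, went the other way, from a control mean of 12.37, with 11.94 as its lowest array, to a class range of 10.10 to 11.57. It fell by 1.51 (SE 0.235, adjusted p = 0.000352), with D3T arrays at 10.48 and OLT arrays at 11.23 on average. Akr1c14, a hydroxysteroid dehydrogenase, fell by 0.62 (SE 0.167, adjusted p = 0.0195) with overlapping ranges. Akr1c14 lost its call without control 1 (adjusted p = 0.0683), and the list then had 1 call downward in place of 3.

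Akr1b8, an aldose reductase relative, had the largest difference of all measured genes and one of the least certain. Controls lay between 3.82 and 4.30, at the floor of the scale. In the class D3T 1 to D3T 4 and OLT 1 read between 13.42 and 13.86, while D3T 5 read 5.77 and OLT 2 to OLT 5 between 4.46 and 6.20. The difference was 5.45 (SE 1.65, adjusted p = 0.0358), and it was called in 5 of the 15 fits that left out 1 array (largest adjusted p = 0.0781). Without D3T 5 and OLT 1 the difference was 5.40 (adjusted p = 0.0499). The class mean of 9.49 lies between the 2 sets of arrays and describes neither.

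Many heat shock chaperones were lower in the class. Of 34 listed genes 28 were measured, 13 were called lower (46.4%, against 9.31% of all genes), 1 higher and 14 neither, with a median of -0.40. In 6 of the 28 every class array lay below every control, as it did in 250 of all 7837 genes. Counts of lower calls were 11 without D3T 5 and OLT 1, 8 without control 2 or control 5, and 7 when arrays were centred; 7 members stayed called in every alternative.

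Within this list Dnajb1 and Dnajb4, J-domain partners of Hsp70, fell beside Hspa1a. Dnajb1 read 11.18, 11.27, 11.13, 11.18 and 11.46 in the controls and from 9.45 over 9.70 to 10.17 in the class, a difference of -1.50 (SE 0.139, adjusted p = 2.45e-06). Dnajb4 read 9.22, 9.65, 9.15, 8.92 and 9.24 in the controls and from 6.65 over 7.47 to 8.13 in the class, a difference of -1.82 (SE 0.219). Neither gene overlapped between class and control. For Dnajb1 the D3T arrays averaged 9.86 and the OLT arrays 9.64. The member called higher was Dnajb6, another J-domain protein, at 0.55 (SE 0.161, adjusted p = 0.0288); its call was lost with single controls left out (largest adjusted p = 0.116), and it is named after its value was seen.

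The same promoter windows were searched for a pair of heat shock element units, GAANNTTC. Of the 11 called-lower chaperones with a window 8 held it (72.7%), as did 12 of all 25 measured chaperones with a window (48%), against 6.19% of measured genes. Genes called lower held it in 7.99% and genes called higher in 8.49%. The windows of Dnajb1, at chr19:41431092-41431391 on the minus strand, and of Hsph1, a chaperone of the Hsp110 family at chr12:10427118-10427417 on the plus strand, are shown with the matches in capitals.
Dnajb1: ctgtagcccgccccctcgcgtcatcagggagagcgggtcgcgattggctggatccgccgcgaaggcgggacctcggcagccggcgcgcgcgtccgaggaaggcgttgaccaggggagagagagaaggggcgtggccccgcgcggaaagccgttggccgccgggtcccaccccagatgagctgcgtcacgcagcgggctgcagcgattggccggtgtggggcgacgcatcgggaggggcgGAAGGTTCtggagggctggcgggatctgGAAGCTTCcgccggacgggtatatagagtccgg
Hsph1: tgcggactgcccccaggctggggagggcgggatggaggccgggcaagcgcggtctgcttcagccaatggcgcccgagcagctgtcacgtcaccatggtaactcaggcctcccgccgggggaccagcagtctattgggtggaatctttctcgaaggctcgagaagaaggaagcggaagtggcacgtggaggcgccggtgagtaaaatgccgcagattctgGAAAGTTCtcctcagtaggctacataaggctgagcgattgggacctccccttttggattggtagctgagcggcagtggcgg
Dnajb1 holds 2 matches, on either side of the gene start, and its window also holds the antioxidant response element core. Hsph1 holds 1 match, at -31. Hsph1 itself fell by 0.61 (SE 0.181, adjusted p = 0.0319), and that call was lost with single arrays left out (largest adjusted p = 0.100).

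Of 27 measured folding genes of the endoplasmic reticulum 4 were called lower (14.8%, against 9.31% of all genes). Called higher was 1 (3.7%, against 4.66%), and 22 were neither, with a median of 0.14. Edem1, which hands misfolded glycoproteins to degradation, fell by 0.76 (SE 0.176). Ero1a, a protein disulfide oxidase, fell by 0.42 (SE 0.108) and Dnajb9, a luminal J-domain protein, fell by 1.37 (SE 0.374); both lost the call with single controls left out (largest adjusted p = 0.0536 and 0.0577). Of 32 measured proteasome genes 2 were called higher (6.25%, against 4.66% of all genes) and none lower. Psmb5, a catalytic subunit, rose by 0.40 (SE 0.0980), and Pomp, an assembly factor, by 0.31 (SE 0.0918), the latter lost with single arrays left out (largest adjusted p = 0.0911).

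The list of PPARa targets and fatty acid oxidation enzymes had the largest number of calls downward of the lists here. Of 34 measured members 19 were called lower (55.9%, against 9.31% of all genes). Called higher was 1 (2.94%, against 4.66%), and 14 were neither, with a median of -0.35. In 12 of the 34, Vnn1 among them, no class array reached any control, as was so in 250 of all 7837 genes. Counts were 16 lower without D3T 5 and OLT 1, 13 without control 1 and 14 when arrays were centred, and 12 members stayed called in every alternative. The member called higher was Angptl4, a lipoprotein lipase inhibitor and itself a PPARa target, at 1.52 (SE 0.381, adjusted p = 0.0133), named after its value was seen.

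Cpt1a, which sets the entry of fatty acids into mitochondria, fell most among the enzymes of oxidation proper. Controls read 12.17, 12.16, 12.30, 12.02 and 11.92, and the class ran from 8.62 over 10.12 to 10.42. The difference was -2.33 (SE 0.268, adjusted p = 1.94e-05), and -2.36 without the 2 arrays of doubtful label. D3T arrays averaged 9.46 and OLT arrays 10.11. Cyp4a1, the omega hydroxylase of fatty acids, read 12.41, 12.88, 12.53, 12.20 and 12.37 in the controls and from 11.22 over 11.49 to 11.72 in the class, a difference of -0.98 (SE 0.112). The D3T arrays averaged 11.54 and the OLT arrays 11.45.

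Fatty acid synthesis went upward in 7 of 26 measured genes (26.9%, against 4.66% of all genes). It went downward in 1 (3.85%, against 9.31%), with a median of 0.49. The 7 were Fads1, Srebf1, Me1, Acss2, Fasn, Acaca and Acly. Srebf1, the transcription factor that drives this pathway, lay between 9.93 and 10.14 in the controls and read from 10.53 over 11.11 to 11.46 in the class, a rise of 1.10 (SE 0.159, adjusted p = 0.000186). Fads1, a fatty acid desaturase, rose by 0.99 (SE 0.130). The gene called lower was Elovl2, an elongase of polyunsaturated fatty acids, at -1.25. Only 4 members were called higher without D3T 5 and OLT 1, without control 2 or without control 4, and 11 when arrays were centred.

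Sterol and lipid transport genes moved in small numbers. Of 22 measured genes of cholesterol synthesis and uptake 3 were called higher (13.6%, against 4.66% of all genes). Called lower was 1 (4.55%, against 9.31%), and the median was 0.12. Dhcr7, the last enzyme of cholesterol synthesis, rose by 1.20 (SE 0.224) with no overlap. Tm7sf2, a sterol reductase, rose by 0.48 (SE 0.145) and Insig2, which holds back SREBP processing, fell by 0.78 (SE 0.208), and both calls were lost with single arrays left out (largest adjusted p = 0.116 and 0.0624). Of 16 measured apolipoprotein genes 1 was called higher (6.25%, against 4.66% of all genes) and 2 lower (12.5%, against 9.31%). Lcat, which esterifies cholesterol in plasma, fell by 0.59 (SE 0.118), Apoa5 fell by 0.40 (SE 0.118) and Apoc3 rose by 0.30 (SE 0.0948). The calls of Apoa5 and Apoc3 did not survive every array left out (largest adjusted p = 0.101 and 0.157).

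Lipid ester hydrolases held the third largest fall of all genes. Nceh1, which hydrolyses neutral cholesterol esters, read 9.42, 9.25, 8.69, 9.29 and 9.58 in the controls and from 3.17 over 5.22 to 6.13 in the class. It fell by 4.26 (SE 0.495, adjusted p = 1.94e-05), and the difference was -4.41 without the 2 arrays of doubtful label. Pnpla2, the main triglyceride lipase of lipid droplets, fell by 1.08 (SE 0.161), and Pnpla7, a lysophospholipase, fell by 0.78 (SE 0.136). In these 3 genes class and control did not overlap. In the list of 16 measured genes these were the 3 called lower (18.8%, against 9.31% of all genes). Called higher were 2 (12.5%, against 4.66%), and the median was 0.10.

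Bile acid synthesis and transport fell in 9 of 23 measured genes (39.1%, against 9.31% of all genes). A rise was called in 1 (4.35%, against 4.66%), and the median was -0.38. Slc27a5, which activates bile acids for conjugation, read 13.38, 12.98, 13.49, 13.08 and 13.31 in the controls and from 11.69 over 12.42 to 12.69 in the class, a difference of -0.92 (SE 0.135, adjusted p = 0.000209). Cyp27a1, the mitochondrial sterol hydroxylase, fell by 0.46 (SE 0.0772), and Slc27a2, a very long chain acyl-CoA synthetase, fell by 0.41 (SE 0.0534); both lost the call when arrays were centred. Nr0b2, the repressor of bile acid synthesis known as SHP, rose by 2.03 (SE 0.374, adjusted p = 0.0016) and is named after its value was seen. Lower calls numbered 5 without D3T 5 and OLT 1, 4 without control 1 and 4 when arrays were centred, and 2 members were called lower in every alternative.

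**Figure D3:**
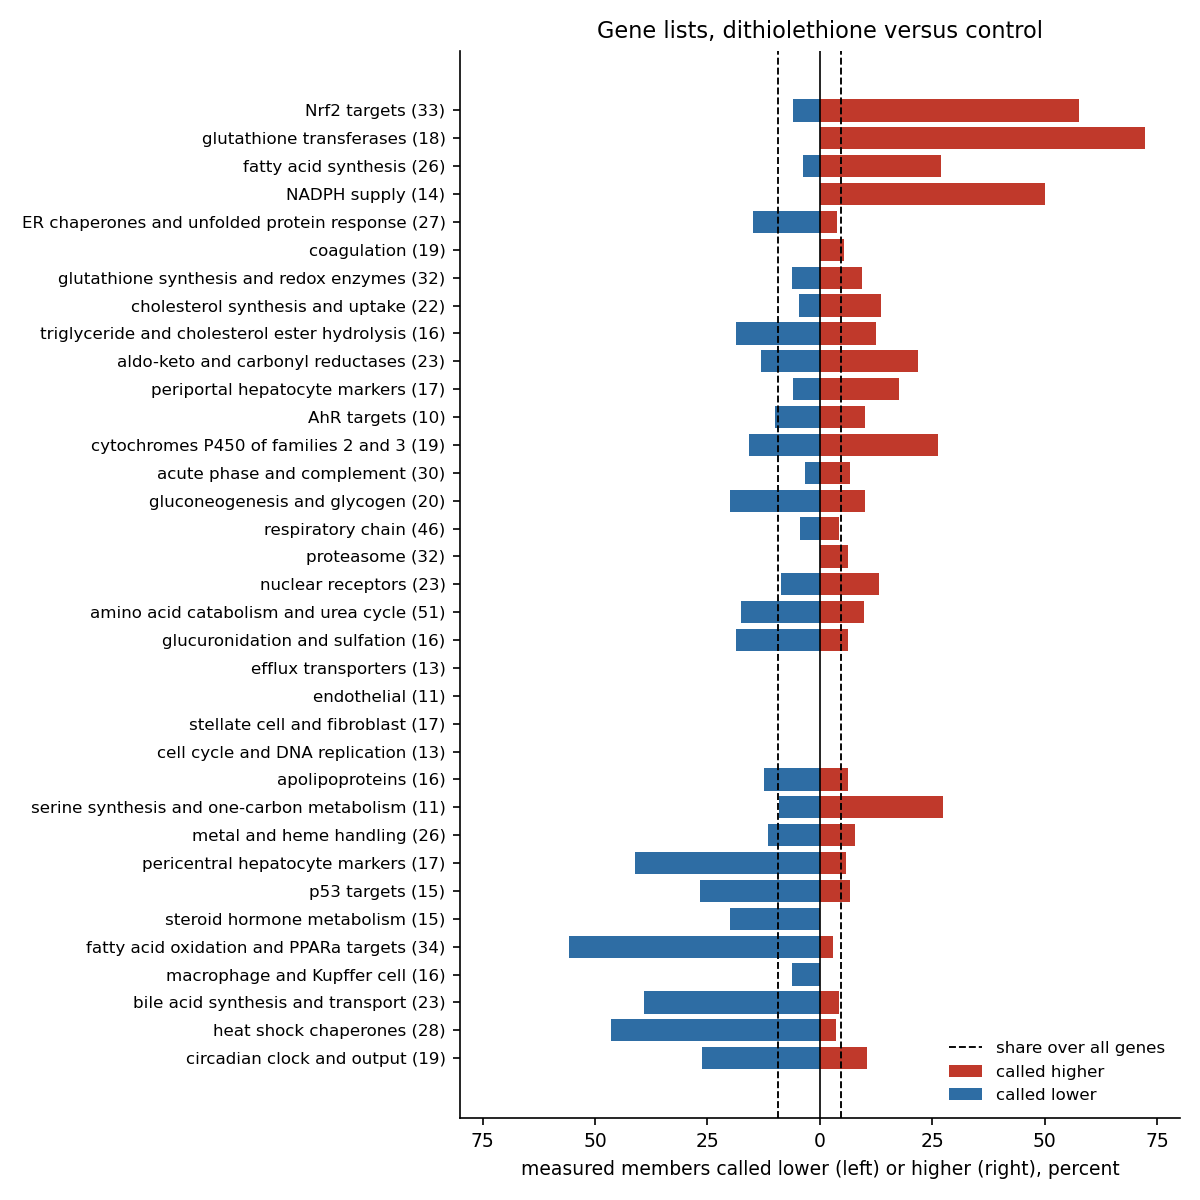
Share of measured members called lower (left, blue) or higher (right, red) in the dithiolethione class, by gene list, ordered by median difference. Markers of hepatocytes, lymphocytes and natural killer cells, cholangiocytes, neutrophils and erythrocytes are left out, and those of macrophages, stellate cells and endothelium are shown. Measured members are in parentheses and dashed lines mark the shares over all genes, 9.31% and 4.66%. Glutathione transferases (72.2%), Nrf2 targets (57.6%) and NADPH supply (50%) reach furthest to the right, and fatty acid oxidation (55.9%), heat shock chaperones (46.4%), pericentral markers (41.2%) and bile acid genes (39.1%) furthest to the left; centring the arrays lowers the shares on the left.

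Clock genes held several large falls. Of 19 measured genes 5 were called lower (26.3%, against 9.31% of all genes) and 2 higher (10.5%, against 4.66%), with a median of -0.71. The 2 called higher were Nr1d1 and Npas2, and Nr1d1 was called higher in every alternative. The hour at which each liver was taken is not given. Per2, a repressor of the clock, read 10.39, 10.19, 9.72, 10.07 and 10.23 in the controls and from 4.37 over 7.37 to 8.69 in the class, a difference of -3.30 (SE 0.608, adjusted p = 0.0016), and -3.49 without D3T 5 and OLT 1. Noct, a phosphatase whose transcript cycles daily in liver, fell by 3.84 (SE 0.803) from controls between 9.85 and 10.30, with D3T arrays at 4.74 and OLT arrays at 7.80 on average. Per1 fell by 1.37 (SE 0.285) from controls at 5.59, 5.59, 5.97, 6.29 and 7.47. Lower calls numbered 3 without D3T 5 and OLT 1 and 3 without control 1, 2, 4 or 5, and Per2, Noct and Per1 stayed called in every alternative.

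**Figure D4:**
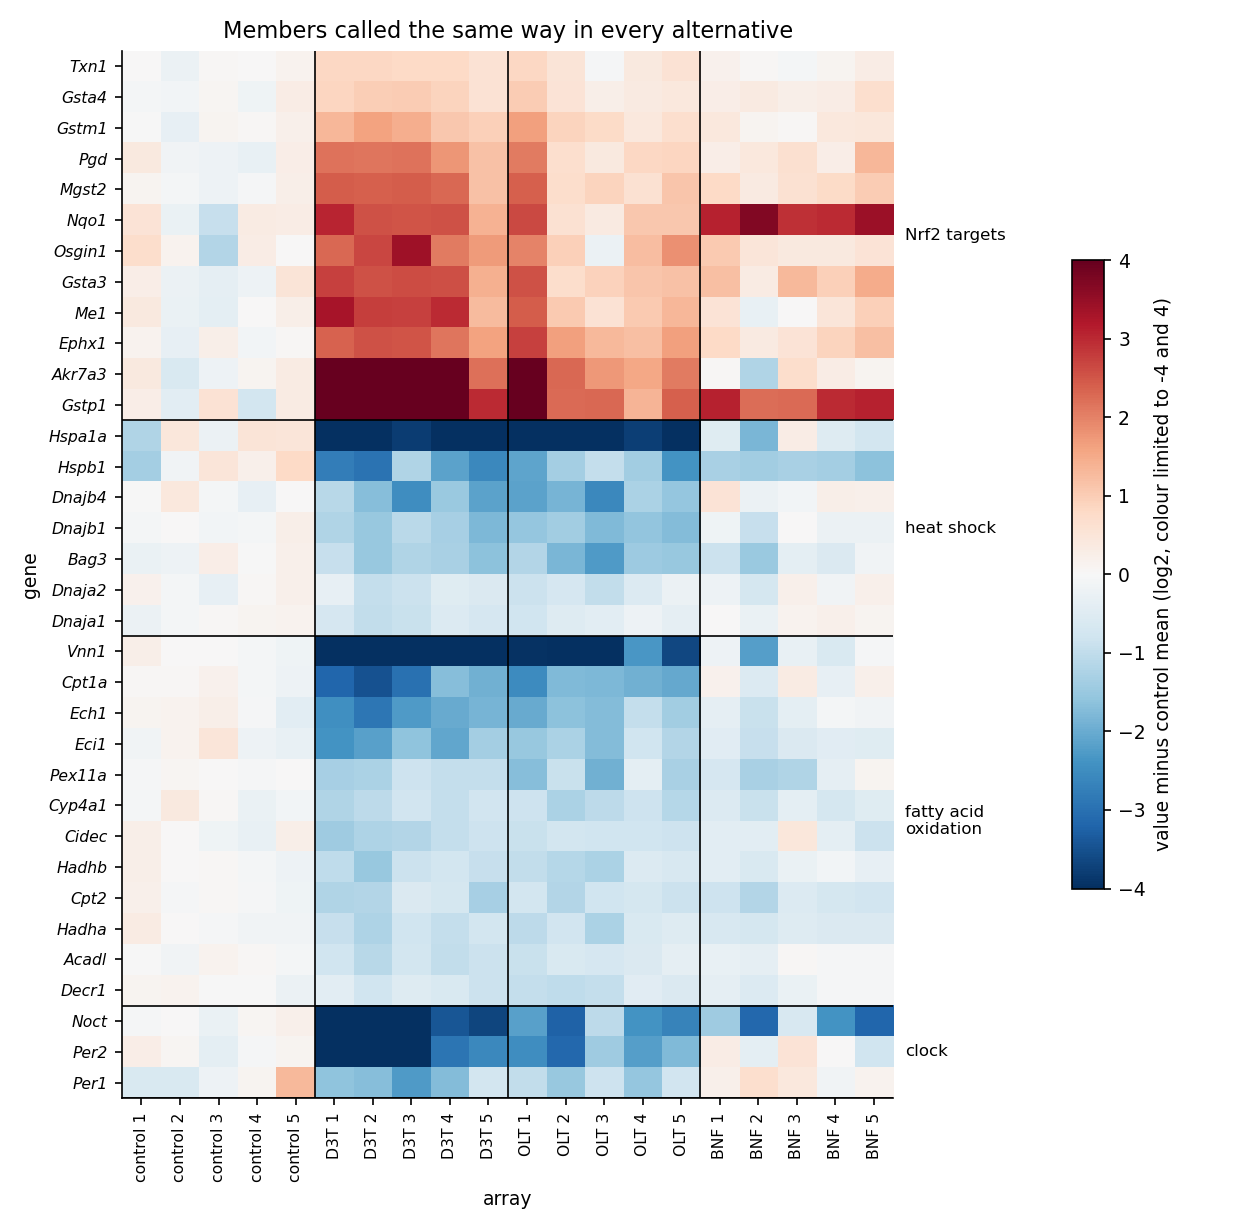
Array values minus the control mean (colour, log2, limited to 4 either way) for members of 4 lists called the same way in every alternative, 1 row per gene and 1 column per array. The 12 Nrf2 targets are red and the 7 heat shock, 12 fatty acid oxidation and 3 clock genes blue across both dithiolethione diets; D3T 5 is paler and OLT 1 darker than their neighbours among the Nrf2 targets, and Gstp1 and Nqo1 are also red under BNF.

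Metal and heme genes changed singly. Of 26 measured genes 2 were called higher (7.69%, against 4.66% of all genes) and 3 lower (11.5%, against 9.31%). Slc40a1, the iron exporter ferroportin, read 10.97, 10.92, 10.73, 10.86 and 11.03 in the controls and from 9.98 over 10.19 to 10.43 in the class, a difference of -0.72 (SE 0.0838, adjusted p = 1.94e-05), with D3T and OLT arrays both at 10.18 on average. Slc39a4, a zinc importer, rose by 1.79 (SE 0.302) with no overlap, and Fech, the last enzyme of heme synthesis, by 0.74 (SE 0.177). The erythrocyte markers Hbb and Alas2 rose in the same arrays, as given above, and their part in these results was not tested. Mt2A, a metallothionein, fell by 3.39 (SE 0.829, adjusted p = 0.0117) from controls between 12.37 and 13.34 to a class range of 6.83 to 12.29.

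Phase I and conjugation enzymes outside the Nrf2 list moved in both directions. Of 19 measured P450 genes of families 2 and 3, 5 were called higher (26.3%, against 4.66% of all genes). Called lower were 3 (15.8%, against 9.31%), and the median was 0.04. Cyp3a9 fell by 1.81 (SE 0.407, adjusted p = 0.0068) from controls between 13.19 and 13.81 to a class range of 10.42 to 13.04. Cyp2c12, the female-specific P450 of rat liver, rose by 0.36 (SE 0.0829), Cyp2t1 by 0.79 (SE 0.184) and Cyp2f4 by 0.94 (SE 0.234). The ranges of Cyp3a9 did not meet, and those of the other 3 overlapped.

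Conjugation held 1 large change. Of 16 measured genes of glucuronidation and sulfation 3 were called lower (18.8%, against 9.31% of all genes) and 1 higher (6.25%, against 4.66%). Sult1c3, a sulfotransferase, averaged 8.67 in the controls, 9.52 being the highest, and ran from 3.50 over 4.78 to 7.70 in the class, below every control, a difference of -3.44 (SE 0.641, adjusted p = 0.0018), and -3.43 without D3T 5 and OLT 1. Ugdh, which makes the glucuronic acid donor, rose by 0.84 (SE 0.227, adjusted p = 0.0198), and Sult1c2 fell by 1.43 (SE 0.410, adjusted p = 0.0273); both calls were lost with single arrays left out (largest adjusted p = 0.0605 and 0.109). None of 13 measured efflux transporters was called by limma. The 2 of smallest p were Abcb1a at -0.46 (adjusted p = 0.0948), although its class arrays all lay below the controls, and Abcc4 at 1.11 (adjusted p = 0.0977).

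Steroid hormone metabolism had 3 called genes of 15 measured, all lower (20%, against 9.31% of all genes). Beside Cyp17a1 and Akr1c14 these included Hsd17b4, a peroxisomal enzyme that also serves fatty acid oxidation, which fell by 0.26 (SE 0.0675, adjusted p = 0.0164) and lost its call with a single array left out (largest adjusted p = 0.0532). Among 23 measured nuclear receptors 3 were called higher (13%, against 4.66% of all genes) and 2 lower (8.7%, against 9.31%). Thrb, a thyroid hormone receptor, rose by 0.75 (SE 0.127) from controls between 10.13 and 10.73 to a class range of 10.93 to 11.27. Nr1i2, the pregnane X receptor, fell by 0.82 (SE 0.126), and Esrra, an oestrogen-related receptor, fell by 0.79 (SE 0.146). These 5 receptor calls held in every alternative.

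Of 10 measured AhR targets 1 was called in each direction (10%, against 4.66% of all genes higher and 9.31% lower). These were Nqo1 upward and Nfe2l2 downward, and both also belong to the Nrf2 list. Nqo1, quinone reductase, averaged 8.45 in the controls, 7.52 being the lowest, and ran from 8.82 over 10.40 to 11.51 in the class, a rise of 1.79 (SE 0.401, adjusted p = 0.0067) with overlapping ranges. Nfe2l2 fell by 0.87 (SE 0.210, adjusted p = 0.0104) and averaged 12.58 under BNF. Cyp1a1, a P450 that the AhR induces, was not called: it read 3.99, 5.61, 4.37, 5.76 and 6.59 in the controls and from 3.97 over 5.88 to 10.28 in the class, a difference of 1.09 (SE 0.961, adjusted p = 0.471).

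Amino acid catabolism and the urea cycle split in direction. Of 51 measured genes 5 were called higher (9.80%, against 4.66% of all genes) and 9 lower (17.6%, against 9.31%), with a median of -0.01. Centring the arrays turned the counts to 8 higher and 3 lower. Higher calls numbered 3 without control 2, 3 or 4, and lower calls 4 without control 1 or control 5. Otc, which makes citrulline, rose by 0.68 (SE 0.134), while Asl, 2 steps further in the same cycle, fell by 0.75 (SE 0.164). Ivd, of leucine breakdown, rose by 0.72 (SE 0.142). None of these 3 overlapped between class and control. Oat, ornithine aminotransferase, fell by 0.92 (SE 0.213).

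Serine and one-carbon genes called higher were 3 of 11 measured (27.3%, against 4.66% of all genes). Called lower was 1 (9.09%, against 9.31%). Psat1, of serine synthesis, lay between 2.20 and 2.82 in the controls, under the filter level, and from 3.28 over 6.63 to 8.26 in the class, a rise of 3.26 (SE 0.643, adjusted p = 0.0027), or 3.38 without D3T 5 and OLT 1. Aldh1l1, a folate enzyme that yields NADPH, rose by 1.70 (SE 0.284) and Shmt2, the mitochondrial serine hydroxymethyltransferase, by 0.52 (SE 0.0885). All 3 kept their call in every alternative and none overlapped.

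In gluconeogenesis and glycogen 2 of 20 measured genes were called higher (10%, against 4.66% of all genes) and 4 lower (20%, against 9.31%). Glycogen genes stood on both sides: Pygl, which degrades glycogen, rose by 0.72 (SE 0.0942, adjusted p = 5.99e-05), and Gys2, which builds it, fell by 1.33 (SE 0.233, adjusted p = 0.0011). Ppp1r3b, which targets a phosphatase to glycogen, fell by 0.97 (SE 0.205). Controls read 10.27, 10.08, 10.41, 10.37 and 10.20 for Pygl against a class range of 10.79 to 11.32, and 10.27, 10.88, 11.08, 10.16 and 10.56 for Gys2 against 8.56 to 9.74. In both genes class and control stood apart.

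Zonation markers gave calls in both directions. Of 17 measured pericentral markers 7 were called lower (41.2%, against 9.31% of all genes) and 1 higher (5.88%, against 4.66%). Their median was -0.14 and became 0.01 when arrays were centred. Lower calls numbered 4 then, 4 without D3T 5 and OLT 1 and 3 without control 5. Lect2, a secreted factor, fell by 0.86 (SE 0.211, adjusted p = 0.0117). Of 17 periportal markers 3 were called higher (17.6%, against 4.66%) and 1 lower (5.88%, against 9.31%), with a median of 0.08.

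In p53 targets 1 of 15 measured genes was called higher (6.67%, against 4.66% of all genes) and 4 lower (26.7%, against 9.31%). Lower calls numbered 2 without control 4 or control 5. Bbc3, the BH3-only protein Puma, rose by 1.05 (SE 0.208), while Gadd45a, a stress and growth arrest gene, fell by 1.31 (SE 0.197). Plk2, a stress-responsive kinase, fell by 1.10 (SE 0.232). Of 30 acute phase and complement genes 2 were called higher (6.67%, against 4.66% of all genes) and 1 lower (3.33%, against 9.31%). Crp and Fgg rose by 0.36 and 0.33, and Lbp fell by 0.73. None of these 3 calls held with every array left out (largest limma adjusted p = 0.0742, 0.110 and 0.0808). Fgg was also the only call among 19 coagulation genes (5.26%, against 4.66% of all genes higher). Of 46 respiratory chain genes 2 were called each way (4.35%, against 4.66% of all genes higher and 9.31% lower). The largest size was -0.32 in Ndufa6, a complex I subunit. No cell cycle gene was called of 13 measured; the smallest p were those of Ccne2 (0.34, adjusted p = 0.103) and Cdk2 (-0.65, adjusted p = 0.112).

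Several of the largest differences lay outside the lists. Efna1, a membrane ligand of Eph receptors, read 6.12, 5.48, 5.02, 4.84 and 5.60 in the controls and from 7.49 over 8.15 to 9.06 in the class, a rise of 2.81 (SE 0.308, adjusted p = 1.22e-05). Rnf125, a ubiquitin ligase, rose by 2.45 (SE 0.315), Fabp5, a fatty acid binding protein, by 2.39 (SE 0.406) and Tubb2a, a beta tubulin, by 2.09 (SE 0.359). Spsb4, an adaptor of a ubiquitin ligase, fell by 3.34 (SE 0.449) from controls between 9.33 and 9.79 to a class range of 4.17 to 7.83. Aig1, a lipid hydrolase, fell by 3.59 (SE 0.386) to a class range of 2.92 to 5.46. Without D3T 5 and OLT 1 the difference was -3.42 for Spsb4 and -3.61 for Aig1. None of these 6 overlapped between class and control.

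Within the class some genes were nearly uniform over both compounds and others were not. Over all genes the median SD of the 10 class arrays was 0.294, and over called genes 0.327, against 0.226 and 0.259 in the controls. Among called genes that differed at least 2-fold, Tsc22d3, a glucocorticoid-induced leucine zipper protein, had an SD of 0.134: controls read 10.85, 10.66, 10.62, 11.12 and 11.57 and the class from 8.84 over 9.14 to 9.31. It fell by 1.83 (SE 0.149, adjusted p = 3.94e-07), with D3T and OLT arrays both at 9.13 on average. Bpgm, of red cell glycolysis, rose by 1.03 (SE 0.152) to 8.33 for D3T and 8.46 for OLT. The erythrocyte markers rose in the same arrays, and their part in the result for Bpgm was not tested.

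Dnajb1, described above, was also among the 5 genes of smallest SD, and the other two lay low in the class. Igf2bp3, an RNA-binding protein, had a class range of 4.63 to 4.80 (SD 0.0531) against controls at 7.46, 5.98, 5.04, 5.58 and 6.70, a difference of -1.42 (SE 0.243), and averaged 4.59 under BNF. Mis12, a kinetochore protein, fell by 1.13 (SE 0.301) to a class range of 3.00 to 3.42, and lost its call without control 1 (adjusted p = 0.0765). In Igf2bp3 and Mis12 it was the controls that varied.

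The genes of largest spread were Akr1b8, Gstp1, Mt2A, Noct and Cryl1. Cryl1, a dehydrogenase of the glucuronate pathway, read 5.71, 5.13, 4.86, 5.91 and 5.14 in the controls and from 6.61 over 9.05 to 10.89 in the class, a rise of 3.49 (SE 0.731, adjusted p = 0.0042). On average D3T arrays stood 4.52 above control in Cryl1 and OLT arrays 2.45. In Akr1b8 these averages were 8.06 and 2.84, in Gstp1 6.76 and 3.26, in Mt2A -4.79 and -1.99 and in Noct -5.37 and -2.30. All these averages include D3T 5 and OLT 1. In Akr1b8 and Gstp1 OLT 1 stood far above OLT 2 to OLT 5, and D3T 5 far below the other D3T arrays. The averages by label therefore do not describe most of their arrays in these genes. Without D3T 5 and OLT 1 the class difference was 3.52 for Cryl1, -3.56 for Mt2A and -4.07 for Noct. In 4 of the 5 genes, all but Noct, D3T 5 stood nearer to OLT 2 to OLT 5 than to the other D3T arrays, and OLT 1 nearer to D3T 1 to D3T 4.

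**Figure D5:**
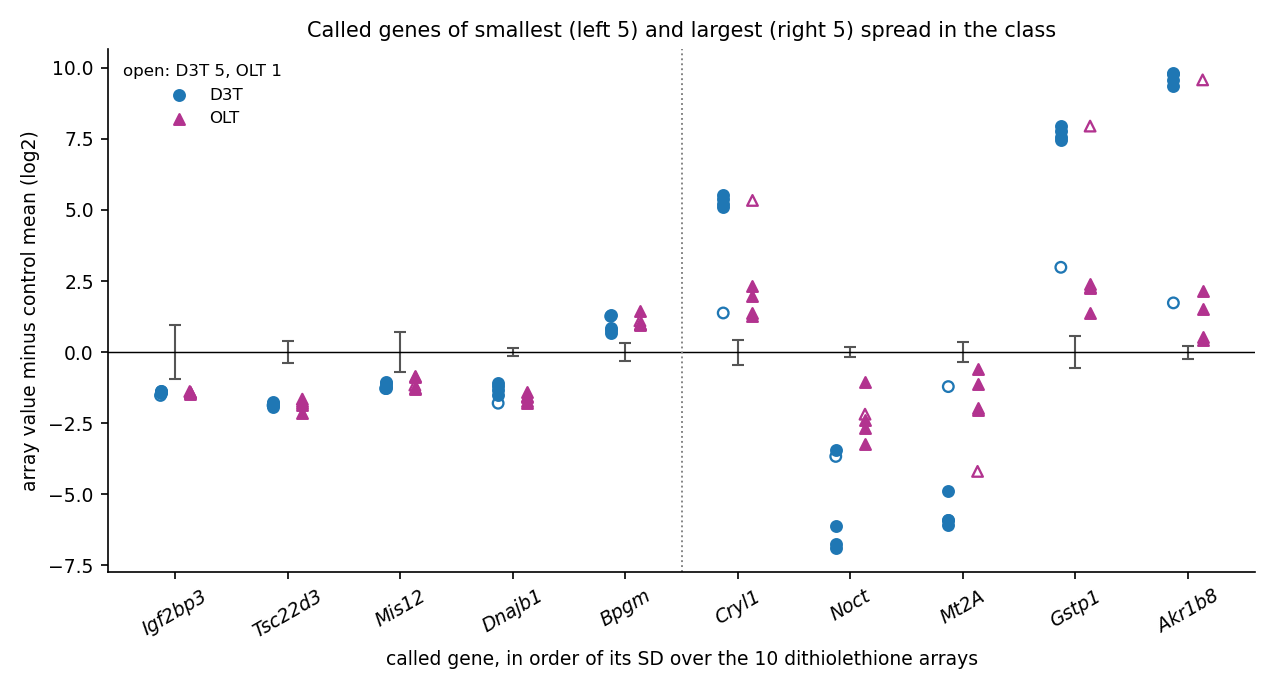
Array values minus the control mean (log2) for the 5 called genes of smallest and the 5 of largest SD over the 10 class arrays; the smallest were taken among called genes that differed at least 2-fold. Circles are D3T and triangles OLT arrays, open symbols the arrays labelled D3T 5 and OLT 1, and grey bars the control SD (n = 5). The left 5 genes stay within a narrow band, while Akr1b8 and Gstp1 split into a higher and a lower set of arrays.

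Set against the BNF diet, the class differed in more genes: 780 of 7837 (9.95%) were called higher and 684 (8.73%) lower. This comparison uses the same class arrays as the one with control, so its values are given for themselves. Markers of other cell types moved with it: 14 of 16 macrophage markers were called lower than under BNF (median -1.32), as were 10 of 17 stellate cell (-0.68), 3 of 5 lymphocyte (-1.45) and 3 of 11 endothelial markers (-0.81), and none higher. The mean macrophage marker level ran from 8.09 to 9.15 under BNF. The part of these markers in the differences from BNF was not tested. The largest differences downward were in genes with high levels under BNF. Cyp1b1, an AhR target, averaged 13.05 under BNF, 2.53 in the class and 2.48 in the controls, a difference of -10.53 between class and BNF. Every control and class array of Cyp1b1 lay under the filter level of 4, so Cyp1b1 passed the filter only through its BNF arrays. Its value is therefore given as a description only. The floor of the scale sets the size of the Cyp1b1 difference, and the same holds for the class means of Rbm24, Lcn2 and Aldh3a1. Rbm24, an RNA-binding protein, differed by -7.38, Cyp1a1 by -7.23, Lcn2, lipocalin, by -5.47 and Aldh3a1, an aldehyde dehydrogenase, by -5.20. None of these 5 was called between class and control.

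Upward the largest differences from BNF were of 2 kinds. Akr7a3 and Cryl1 were raised in the class and differed from BNF by 3.47 (SE 0.624) and 4.16 (SE 0.731). Spink1l, a trypsin inhibitor, Aspg, an asparaginase, and Dao, D-amino acid oxidase, differed by 4.55 (SE 0.590), 4.46 (SE 0.291) and 4.07 (SE 0.540), and none of them was called against control. Their BNF means were 5.15, 4.25 and 4.33, against 10.24, 8.61 and 7.10 in the controls. Of the Nrf2 list 13 of 33 measured genes were called higher in the class than under BNF and 3 lower. Of 28 measured heat shock genes 1 was called higher and 7 lower. Over all genes 9.95% were called higher than under BNF and 8.73% lower.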

How the data were processed

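Liver RNA of 20 rats was labelled with biotin and hybridized to 1-colour Affymetrix arrays, per the labels' protocols, and the authors deposited log2 probe set values made with GCRMA, per the submitters' processing notes (version not given in the sources used here). GCRMA subtracts background, normalizes between arrays and summarizes probes, so low values gather near a floor. The log2 values were used as deposited, for 31042 probe sets. Gene names came from the platform annotation and were updated by gene identifier through RefSeq (20758 updated, 68 kept); of the 12947 tested, 10047 had 1 gene, 295 several and 2605 none. Only those with 1 gene name a gene, and 1699 genes had several tested probe sets.

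Tests used limma 3.58.1 in R 4.3.3 (lmFit, eBayes with an intensity trend, two-sided) on all 20 arrays with 1 mean each for control, BNF and the dithiolethione class. p-values were Benjamini-Hochberg adjusted over tested probe sets, at 0.05. On 12947 simulated probe sets, 79 of 100 2-fold and 98 of 100 4-fold changes were recovered, and 13 of 190 calls were false. P-values measure the spread of arrays about the means of control, BNF and the class. In the class that spread also holds the difference between D3T and OLT. With 1 mean per diet 531 probe sets were called higher and 1168 lower. Dates of scanning were not used here.

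Genes named are 4 chosen for the class, the 10 largest non-overlapping changes each way, up to 3 called members of smallest p per list (or 2 where none was called), the 5 called genes of smallest and of largest class SD, and the 5 largest differences from BNF each way. Others are said to be named after their values were seen, or belong to a list's few calls. The class, the 40 gene lists and the tests were chosen with earlier results of these data known. Alternatives were centring, quantile normalization, no filter, a stricter filter (above 6), no trend, a robust prior, array weights, 1 mean per diet, only the 15 arrays compared, averaging all probe sets of a gene, the replicate number as a blocking factor, both doubtfully labelled arrays left out, and each array left out; the interquartile range as a covariate was added after seeing the data. Promoters are RefSeq windows of GRCr8, matched by gene identifier for 6604 of the 7837 genes.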

Additional observations from a re-analysis of the deposited data

Results flagged for a closer look

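In 9 groups of arrays of the named genes, 1 array stood far from the rest by Dixon's criterion, which chance alone meets in about 1 of 20 groups. The groups come from 123 named genes, so several such arrays are met by chance alone. Among the controls, control 2 was lowest in Fabp5 at 6.80 (next 7.60) and highest in Jun at 11.47 (next 10.71), control 1 was highest in Pnpla7 at 11.37 (next 10.93) and control 3 highest in Acta2 at 8.62 (next 8.03).

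In the dithiolethione class, OLT 4 was highest in Vnn1 at 6.54 (next 5.25), OLT 5 highest in Nr1i2 at 9.50 (next 8.86), D3T 4 highest in Sult1c2 at 3.87 (next 3.06), OLT 1 highest in Cyp1b1 at 2.79 (next 2.55) and OLT 3 lowest in Txn1 at 12.75 (next 13.20). Vnn1, Nr1i2, Txn1, Fabp5, Jun and Pnpla7 kept their calls in every alternative. Sult1c2 lost its call in some, and Acta2 and Cyp1b1 were not called against control.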

How the results depend on the processing

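Of 123 named genes 102 were called against control, and 78 of these kept the call under all 28 alternatives and 82 in every fit that left out 1 array. Probe sets called higher numbered 490 in the fit reported, 1233 with centred arrays, 892 with quantile normalization, 297 with no filter, 1362 with array weights and 741 with the interquartile range as covariate, which was chosen after seeing the data. Those called lower numbered 1106, 720 with no filter and 1669 with array weights. With 1 array left out the counts ran from 272 to 631 higher and from 652 to 1349 lower; the fewest higher were without control 4, followed by 274 without control 2, and the fewest lower without control 1. Against BNF, 1036 probe sets were called higher, 1607 with centred arrays, 1941 with weights and 1735 with the covariate; 990 were called lower, 1783 with weights and 1944 with the covariate. The cause of these shifts was not tested. With D3T 5 and OLT 1 both left out 343 were higher and 778 lower, and 1092 kept call and direction.

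The replicate number as a block gave 490 higher and 1118 lower. Deviations of same-numbered arrays from their diet means correlated between -0.272 and 0.297. Arrays of different number were not compared, so whether the numbers tie rats together was not decided. Aspg, not called against control at 0.10, ran from -0.0774 without control 3 to 0.2425 without control 1. Precision is limited by the number of arrays and, for genes near a log2 value of 4, by the floor of GCRMA.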

Other observations

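Genes that stress or hormones are known to induce quickly were looked at as 2 further lists. These lists were drawn up after the values had been seen, so their counts describe these arrays and test nothing. Of 19 measured immediate early genes 5 were called lower (26.3%, against 9.31% of all genes). Called higher was 1 (5.26%, against 4.66%), and the median difference was -0.34. Jun, a subunit of the AP-1 transcription factor, read 10.47, 11.47, 10.71, 10.49 and 10.47 in the controls and from 7.80 over 8.40 to 9.40 in the class, a difference of -2.20 (SE 0.236, limma adjusted p = 9.93e-06). D3T arrays averaged 8.48 and OLT arrays 8.55, and the BNF arrays 10.78. Sik1, a salt-inducible kinase, fell by 1.27 (SE 0.252) and Rhob, a small GTPase, fell by 0.89 (SE 0.177).

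Of 20 measured genes known to be induced by glucocorticoids 8 were called lower (40%, against 9.31% of all genes). Called higher was 1 (5%, against 4.66%), and the median was -0.72. Of the 8 called lower, 6 stayed called in every alternative. Tsc22d3 and Per1 are described above. Fkbp5, a chaperone of the glucocorticoid receptor, read 6.17, 6.77, 6.46, 6.83 and 8.31 in the controls and from 5.10 over 5.77 to 6.18 in the class, a difference of -1.26 (SE 0.244, adjusted p = 0.0023). Nfkbia, an inhibitor of NF-kB, fell by 0.98 (SE 0.153) with no overlap. The lists share Dusp1, a phosphatase of MAP kinases, which fell by 2.37 (SE 0.493) and is named after its value was seen. The gene called higher was Angptl4. No hypothesis was tested on these genes.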
